A study of Mus musculus with 16 samples.

Results

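The genes described here are 9 members of the tumour necrosis factor (TNF) receptor family and its signalling, chosen by name from the 52997 gene rows of the count table and read across the 5 groups of regulatory T cells (Tregs). All 9 had a row, and all 9 passed the filter on low counts in the Treg libraries. They are the TNF receptors Tnfrsf1b (TNFR2) and Tnfrsf1a (TNFR1), the costimulatory receptors Tnfrsf9 (CD137), Tnfrsf4 (OX40), Tnfrsf18 (GITR) and Cd27, the death-domain receptors Tnfrsf25 (DR3) and Fas, and the adaptor Traf1.

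The study sequenced polyadenylated RNA from mice on the B6 background, 6 to 8 weeks old, with or without a transgene for the T cell receptor (TCR) mTreg24. Tg muscle Tregs and injured Tg spleen Tregs were sorted as Vβ8+ cells from mTreg24 TCR-tg+ Foxp3 GFP+ mice 3 days after cardiotoxin was given to damage the muscle, and uninjured Tg spleen Tregs came from mice of that strain without injury. WT muscle Tregs and WT spleen Tregs were sorted as total Tregs from mTreg24 TCR-tg- Foxp3 GFP+ mice, which carry the same GFP reporter but no TCR transgene, also 3 days after injury. Each of these 5 groups had 2 libraries, and whole muscle taken 8 days after injury gave 3 Tg and 3 WT libraries. The sort gate therefore differed between genotypes, and gate and genotype cannot be told apart. The transgene encodes the receptor of 1 clone, whereas WT Tregs are polyclonal. Nothing says whether replicates came from separate mice, and the spread that p-values rest on may therefore be technical.

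Receptors of this family are trimeric surface proteins that bind ligands of the TNF family. They signal through TRAF adaptors to the transcription factor NF-κB and to MAP kinases, and those with a death domain can also signal to cell death. In Tregs, TNFR2, GITR, OX40 and CD137 are known as costimulatory receptors that are abundant on activated cells, and TCR signals raise several of them. CD27, the receptor of CD70, is carried by resting T cells and is lost from many effector cells.

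The labelled cell type and gate were checked first. Foxp3, the lineage factor of Tregs, lay between 1108 and 2125 CPM (a gene's count over its library's total count, on a common scale) in the Treg libraries and at 0 to 1.54 CPM in whole muscle. Trbv13-2, which encodes Vβ8.2, lay between 3494 and 4629 CPM in Tg Tregs and between 14.9 and 75.7 CPM in WT Tregs. Treg libraries held 1986700 to 9116800 counts and whole muscle libraries 5095999 to 7075420. WT muscle Treg replicate 2 stood apart as the deepest library with the fewest genes detected (17081). The chi-square per degree of freedom between the 2 WT muscle Treg libraries was 28.9, against 5.47 to 9.02 in the other Treg groups. It was computed from raw counts and can rise with depth, so these values are not strictly comparable. The WT muscle Treg libraries held 4625354 and 9116800 counts, and those of the other Treg groups at most 4502813.

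Of the members, 5 lie on chromosome 4, 2 on chromosome 6, Fas on chromosome 19 and Traf1 on chromosome 2 (GRCm38, GENCODE gene models). Tnfrsf4 (chr4:156013843-156016612) and Tnfrsf18 (chr4:156026164-156028895) are neighbours on the plus strand, 9552 bases apart. Cd27 (chr6:125232622-125237010) and Tnfrsf1a (chr6:125349362-125362484) lie 112352 bases apart. Tnfrsf9 spans chr4:150914562-150946102. The library kit does not mark strand, and Tnfrsf18 shares 414 exonic bases with the antisense gene Gm16008, which reached at most 25.0 CPM in any Treg library.

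The start-site sequences of Tnfrsf9 are shown because it had the largest muscle-to-spleen difference of the 9 genes in both genotypes, and those of Tnfrsf4 and Tnfrsf18 because they were the pair with the most alike profiles. Each sequence runs from 250 bases before to 50 after a RefSeq start (GRCm38.p6, plus strand). Capitals mark matches to an NF-κB motif (GGG, a pair of any bases, TT, any base, CC) or an AP-1 motif, TGANTCA, both searched on both strands. The internal start of Tnfrsf9 at chr4:150927749-150928048 holds a pair of overlapping NF-κB matches that together read GGGGATTTCCC, beginning at position -43 from the start, and 1 AP-1 match, TGAGTCA, at position -15. The windows at chr4:150919905-150920204 (Tnfrsf9, upstream start), chr4:156013445-156013744 (Tnfrsf4) and chr4:156026072-156026371 (Tnfrsf18) hold neither.
Tnfrsf9, internal start: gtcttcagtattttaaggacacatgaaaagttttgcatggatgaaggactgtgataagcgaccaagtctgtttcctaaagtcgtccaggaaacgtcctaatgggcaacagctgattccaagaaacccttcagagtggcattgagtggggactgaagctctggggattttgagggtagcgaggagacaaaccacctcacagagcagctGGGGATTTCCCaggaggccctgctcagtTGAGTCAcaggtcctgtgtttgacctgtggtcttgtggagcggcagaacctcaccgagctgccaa
Tnfrsf9, upstream start: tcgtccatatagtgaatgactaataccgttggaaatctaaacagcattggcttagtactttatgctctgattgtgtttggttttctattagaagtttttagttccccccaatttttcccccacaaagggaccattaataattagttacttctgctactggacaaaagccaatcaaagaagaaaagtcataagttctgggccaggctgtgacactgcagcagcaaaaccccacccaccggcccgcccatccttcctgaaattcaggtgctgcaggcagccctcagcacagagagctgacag
Tnfrsf4: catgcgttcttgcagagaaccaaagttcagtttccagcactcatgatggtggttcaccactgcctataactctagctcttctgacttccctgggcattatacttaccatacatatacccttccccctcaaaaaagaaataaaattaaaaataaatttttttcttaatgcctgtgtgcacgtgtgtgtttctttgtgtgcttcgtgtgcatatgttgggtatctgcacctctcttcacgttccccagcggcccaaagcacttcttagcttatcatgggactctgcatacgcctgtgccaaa
Tnfrsf18: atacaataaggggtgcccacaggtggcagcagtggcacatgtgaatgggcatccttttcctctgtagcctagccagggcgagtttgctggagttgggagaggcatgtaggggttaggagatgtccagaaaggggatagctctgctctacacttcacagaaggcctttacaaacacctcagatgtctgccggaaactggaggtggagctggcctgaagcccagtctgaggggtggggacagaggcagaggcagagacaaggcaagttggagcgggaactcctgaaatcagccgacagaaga
All 9 members matched the RefSeq table, with 11 starts in all. The NF-κB letters were found in 2 of the 11 windows (Tnfrsf9 internal start and the first start of Tnfrsf25), the AP-1 letters in 2 (Tnfrsf9 internal start and Fas), and both in 1. Of 32851 mouse windows of this length, 4.79% held the NF-κB letters, 7.81% the AP-1 letters and 0.384% both. These are matches of letters, not binding sites.

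The first question was how muscle Tregs differ from spleen Tregs. In Tg mice 5 members were higher in muscle (Tnfrsf9, Tnfrsf4, Tnfrsf18, Traf1 and Tnfrsf1b), 1 was lower (Cd27), and Tnfrsf1a, Tnfrsf25 and Fas did not pass. The test was edgeR's quasi-likelihood test with Benjamini-Hochberg adjustment over 13188 genes and an adjusted p under 0.05. Against these 6 of 9, 7.38% of all tested genes were called (4.83% higher and 2.55% lower), and 12.8% of the 4255 genes whose mean was at least that of the lowest member, 51.8 CPM. The members were chosen with earlier results of these data known, so these shares are no test of the set. In WT mice the same 5 were higher and Cd27 lower, against 16.2% of all tested genes (9.38% higher and 6.87% lower) and 25.7% of those 4255. The median log2 fold change of the members was 0.99 in Tg and 0.61 in WT, against -0.04 over all genes in each. Overlap of libraries, here and below, was read from CPM, which does not use edgeR's normalisation factors. The libraries of muscle and spleen did not overlap for 8 of 9 members in Tg, against 57.3% of all tested genes, and for 9 of 9 in WT, against 57.6%. Fas was among the 8 in Tg although its fitted log2 value was -0.02. Scaling by library totals in place of edgeR's normalisation factors moved the median of all genes to -0.24 in Tg and -0.23 in WT and turned the balance of calls: 435 genes were higher and 684 lower in Tg (637 and 336 with edgeR's factors), and 838 higher and 1383 lower in WT (1237 and 906). The same 6 members were called in Tg under library totals, and in WT Tnfrsf25 and Fas were called lower as well. In these bulk libraries, fewer cells with a transcript and less transcript per cell cannot be told apart.

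**Figure D1:**
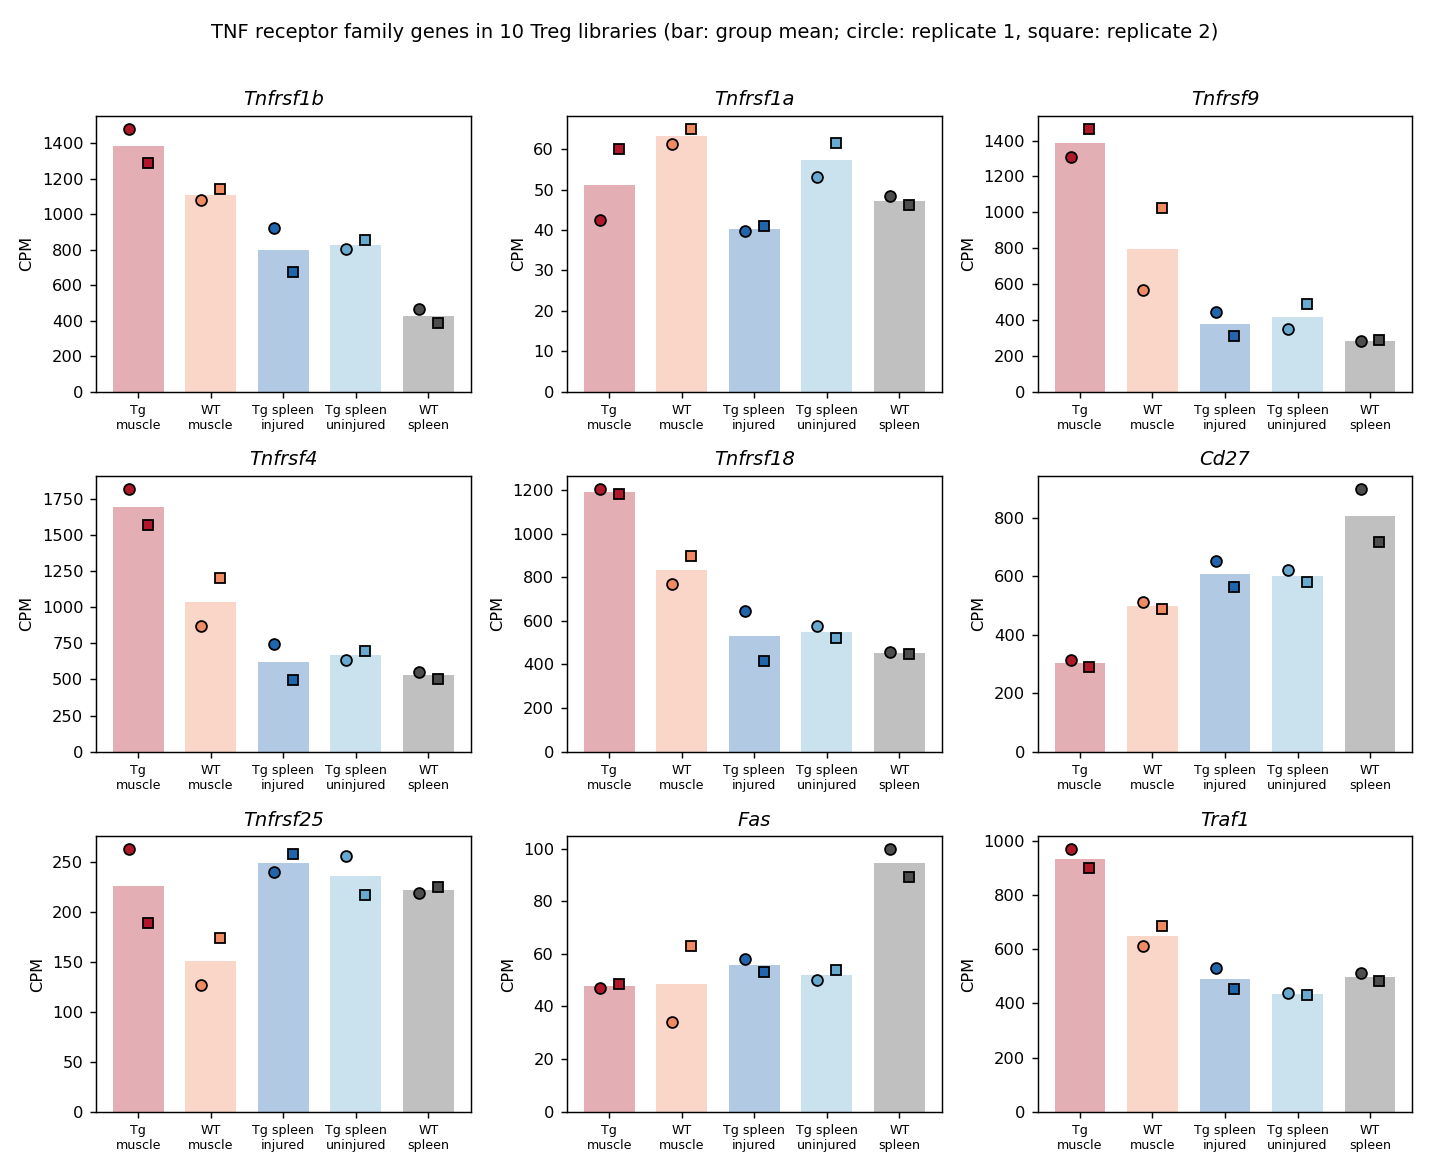
CPM (y axis, from 0) of each member in the 10 Treg libraries, by group. Bars are means of 2 libraries, circles replicate 1 and squares replicate 2. The 5 genes called higher in muscle have both muscle groups above the spleen groups, and Cd27 has both below.

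Tnfrsf1b encodes TNFR2, the TNF receptor that has no death domain and is abundant on Tregs. It had 1479 and 1286 CPM in Tg muscle Tregs and 1079 and 1142 CPM in WT muscle Tregs. In spleen it had 919.6 and 674 CPM in injured Tg, 801 and 854 CPM in uninjured Tg and 468 and 388 CPM in WT Tregs. The order Tg muscle, WT muscle, Tg spleen, WT spleen held with no overlap between those neighbours, while the 2 Tg spleen groups overlapped. Muscle was 1.99-fold above injured spleen in Tg (log2 0.99 ± 0.16 SE, adjusted p = 0.000808) and 2.95-fold above spleen in WT (1.56 ± 0.16, adjusted p = 1.24e-05).

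Tnfrsf1a encodes TNFR1, the widely expressed TNF receptor with a death domain. It had 42.4 and 59.9 CPM in Tg muscle, 61.4 and 64.9 in WT muscle, 39.8 and 40.9 in injured Tg spleen, 53.1 and 61.5 in uninjured Tg spleen and 48.3 and 46.2 in WT spleen. WT muscle overlapped uninjured Tg spleen, and Tg muscle overlapped both uninjured Tg spleen and WT spleen. Muscle against spleen gave a log2 value of 0.55 in Tg (95% interval 0.08 to 1.02, adjusted p = 0.163) and 0.61 in WT (0.14 to 1.07, adjusted p = 0.0729). The WT value passed with limma-voom (0.62, adjusted p = 0.0487).

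Per kilobase of exon, Tnfrsf1b exceeded Tnfrsf1a in every Treg library. The ratio of the CPM per kb of Tnfrsf1b to that of Tnfrsf1a was 23.7 and 14.6 in Tg muscle, 11.9 and 11.9 in WT muscle, 15.7 and 11.2 in injured Tg spleen, 10.2 and 9.43 in uninjured Tg spleen and 6.57 and 5.70 in WT spleen. Both WT spleen libraries had the lowest ratios.

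Tnfrsf9 encodes CD137, an activation-induced costimulatory receptor. It reached 1307 and 1464 CPM in Tg muscle Tregs and 564 and 1025 in WT muscle Tregs. Spleen Tregs had 444 and 309.7 in injured Tg, 349.9 and 486 in uninjured Tg and 281 and 288 in WT. Both Tg muscle libraries lay above all others, and the 2 WT muscle libraries differed 1.82-fold, with the higher in replicate 2. The muscle-to-spleen fold was 4.22 in Tg (log2 2.08 ± 0.32, adjusted p = 0.00564) and 3.20 in WT (1.68 ± 0.31, adjusted p = 0.00946). Leaving out WT spleen Treg replicate 1 or 2 ended the WT call (1.68, adjusted p = 0.0818; 1.70, adjusted p = 0.106), and leaving out injured Tg spleen Treg replicate 2 ended the Tg call (1.84, adjusted p = 0.0629).

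Tnfrsf4, or OX40, is a costimulatory receptor of activated T cells and constitutive on mouse Tregs. It had 1818 and 1573 CPM in Tg muscle, 869.8 and 1202 in WT muscle, 749 and 498 in injured Tg spleen, 637 and 699 in uninjured Tg spleen and 552 and 503 in WT spleen. Both muscle groups lay above the 3 spleen groups, and injured Tg spleen overlapped each of the other two spleen groups. The muscle-to-spleen fold was 3.12 in Tg (log2 1.64 ± 0.21, adjusted p = 0.000325) and 2.24 in WT (1.17 ± 0.20, adjusted p = 0.00229).

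Tnfrsf18, or GITR, is a costimulatory receptor long used as a Treg surface marker. It had 1202 and 1181 CPM in Tg muscle, 769 and 899 in WT muscle, 643 and 414 in injured Tg spleen, 576 and 522 in uninjured Tg spleen and 455 and 447 in WT spleen. The muscle groups did not overlap each other or any spleen group. The fold was 2.59 in Tg (log2 1.37 ± 0.18, adjusted p = 0.000215) and 2.11 in WT (1.08 ± 0.18, adjusted p = 0.000969).

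In profiles over the 10 libraries, each centred on its own mean, Tnfrsf4 and Tnfrsf18 were the closest pair of members, at a root mean square distance of 0.14 on the log2 scale. Tnfrsf9 and Cd27 were the farthest apart, at 1.31. The CPM per kb of Tnfrsf4 over that of Tnfrsf18 stayed between 1.24 and 1.69 in every library. In injured Tg spleen, replicate 1 exceeded replicate 2 by 1.56-fold for Tnfrsf18, 1.5-fold for Tnfrsf4, 1.43-fold for Tnfrsf9 and 1.36-fold for Tnfrsf1b. Traf1 (1.17-fold), Cd27 (1.15-fold) and Fas (1.1-fold) deviated the same way between these 2 libraries. Tnfrsf1a (0.972) and Tnfrsf25 (0.931) went the other way.

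Cd27 was the 1 member lower in muscle Tregs. It had 313 and 289.5 CPM in Tg muscle, 510.0 and 486 in WT muscle, 651 and 564 in injured Tg spleen, 621 and 579 in uninjured Tg spleen and 897 and 716 in WT spleen. Both Tg muscle libraries were below all others, and both WT spleen libraries above all others. Muscle over spleen was 0.569 in Tg (log2 -0.81 ± 0.14, adjusted p = 0.00179) and 0.701 in WT (-0.51 ± 0.14, adjusted p = 0.0213). The WT call ended without WT muscle Treg replicate 2 (-0.52, adjusted p = 0.0566), without WT spleen Treg replicate 1 (-0.33, adjusted p = 0.19) and in a fit of the 2 groups alone (-0.51, adjusted p = 0.0988).

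The CPM per kb of Tnfrsf9 over that of Cd27 was 3.57 and 4.32 in Tg muscle, 0.946 and 1.80 in WT muscle, 0.584 and 0.469 in injured Tg spleen, 0.482 and 0.719 in uninjured Tg spleen and 0.268 and 0.344 in WT spleen. Tnfrsf9 exceeded Cd27 per kb in both Tg muscle libraries and 1 WT muscle library, and Cd27 exceeded Tnfrsf9 in every spleen library.

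Tnfrsf25, or DR3, is the death-domain receptor of TL1A (Tnfsf15) and is known to expand Tregs when engaged. It had 263 and 189 CPM in Tg muscle, 127 and 174 in WT muscle, 240.3 and 258 in injured Tg spleen, 256 and 217 in uninjured Tg spleen and 219 and 225 in WT spleen. Only the WT muscle libraries lay below all the other Treg libraries. It passed in neither tissue comparison, with log2 values of 0.05 in Tg (95% interval -0.36 to 0.46, adjusted p = 0.925) and -0.37 in WT (-0.78 to 0.05, adjusted p = 0.226). In WT it passed as lower without WT muscle Treg replicate 2 (-0.66, adjusted p = 0.0433) and with library totals (-0.57, adjusted p = 0.0446), and it was at -0.11 without WT muscle Treg replicate 1 (adjusted p = 0.751).

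Fas, the receptor of Fas ligand that triggers apoptosis, had 46.9 and 48.7 CPM in Tg muscle, 33.9 and 62.9 in WT muscle, 58.2 and 53.0 in injured Tg spleen, 49.9 and 53.9 in uninjured Tg spleen and 99.7 and 89.1 in WT spleen. Both WT spleen libraries lay above all others. The log2 value was -0.02 in Tg (95% interval -0.58 to 0.54, adjusted p = 0.984) and -0.75 in WT (-1.30 to -0.20, adjusted p = 0.0628). The WT value passed without a low-count filter (-0.72, adjusted p = 0.0286), without WT muscle Treg replicate 2 (-1.33, adjusted p = 0.00191) and with library totals (-0.95, adjusted p = 0.0174), and it was at -0.34 without WT muscle Treg replicate 1 (adjusted p = 0.348). The 2 WT muscle libraries differed 1.85-fold.

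Traf1 encodes an adaptor that joins TRAF2 at receptors such as TNFR2 and CD137 and is itself induced by NF-κB. It had 969 and 901 CPM in Tg muscle, 614 and 686 in WT muscle, 531 and 452 in injured Tg spleen, 439 and 431 in uninjured Tg spleen and 513 and 481 in WT spleen. Both Tg muscle libraries lay above all others, and WT muscle lay above the 3 spleen groups. The fold was 2.18 in Tg (log2 1.13 ± 0.13, adjusted p = 7.17e-05) and 1.49 in WT (0.57 ± 0.13, adjusted p = 0.00896). The WT call ended without WT muscle Treg replicate 2 (0.45, adjusted p = 0.0639), without WT spleen Treg replicate 2 (0.54, adjusted p = 0.0786) and in a fit of the 2 groups alone (0.57, adjusted p = 0.0624).

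**Figure D2:**
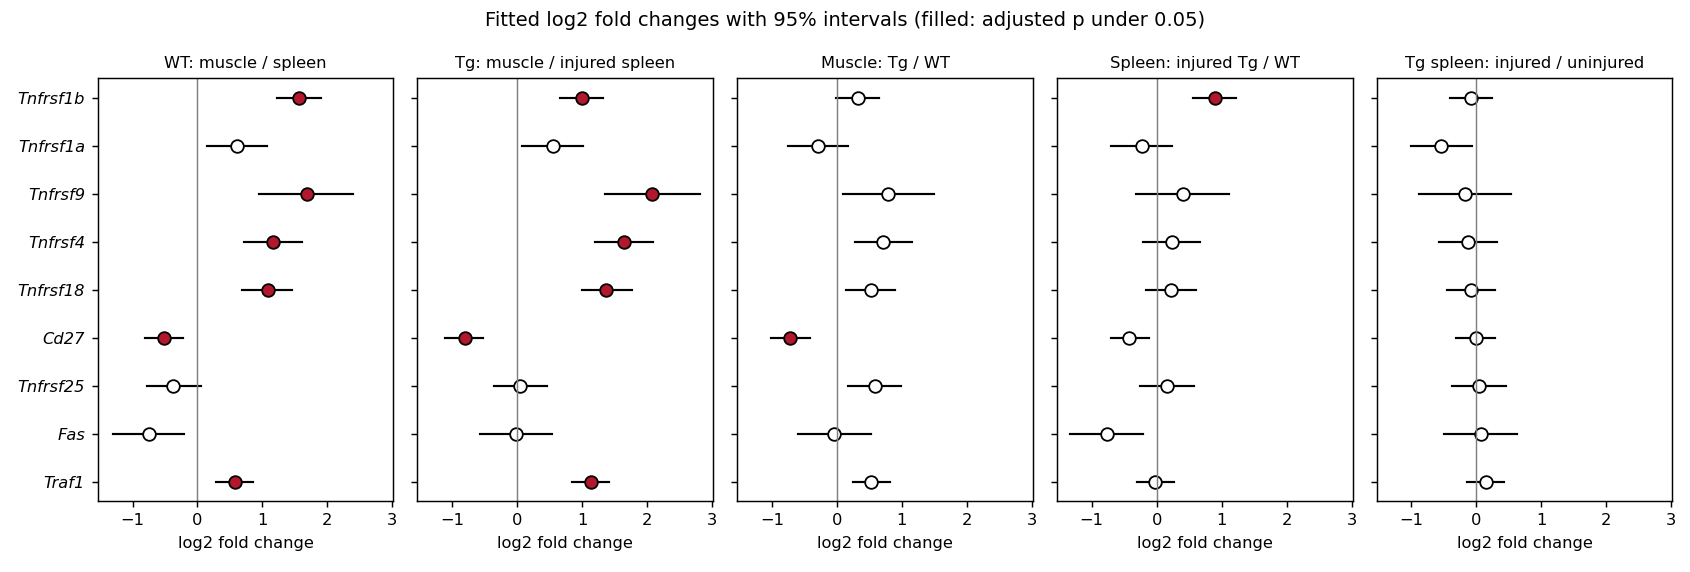
Fitted log2 fold changes of each member (x axis) with 95% intervals in 5 comparisons. Filled points passed an adjusted p under 0.05, and the first group named in each panel is on top of the fold. Filled points number 6 in each tissue panel, 1 in the muscle genotype panel (Cd27), 1 in the spleen genotype panel (Tnfrsf1b) and 0 in the injury panel.

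Other transcripts moved with tissue too. Of 14 dissociation and heat response genes, 12 were higher in muscle Tregs in Tg and 12 in WT. Their summed level was 9569 to 10074 CPM in Tg muscle, 8535 to 10114 in WT muscle, 2378 to 2486 in injured Tg spleen, 2668 to 2760 in uninjured Tg spleen and 2255 to 2551 in WT spleen. Their part in the members' differences was not tested. Of 11 macrophage and monocyte markers, 10 were tested, of which 5 were lower in muscle in Tg, and 2 lower and 1 higher in WT. Their sum was 32.4 to 46.9 CPM in Tg muscle and 21.8 to 35.8 in WT muscle, against 178 to 206 in injured Tg spleen and 98.4 to 118 in WT spleen, and C1qa was at 0 in both Tg muscle libraries. Of 8 B cell markers, 2 of 6 tested were lower in muscle in each genotype. Their sum was 23.8 to 27.5 CPM in Tg muscle and 33.3 to 38.2 in WT muscle, against 81.2 to 139.9 in injured Tg spleen and 70.0 to 113 in WT spleen, with Blk at 0 in both Tg muscle libraries and Ms4a1 at 0 in both WT muscle libraries. Their part was not tested either. Foxp3 itself was higher in muscle by 0.90 ± 0.13 in Tg and 0.68 ± 0.13 in WT, and Il2ra, the IL-2 receptor alpha chain, by 1.52 ± 0.17 in Tg, with 0.02 ± 0.16 in WT (adjusted p = 0.947).

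By mean CPM per kb of exon, Tnfrsf4 ranked first of the 9 in all 5 Treg groups. In injured Tg spleen its range, 365 to 548 CPM per kb, overlapped that of Tnfrsf18, 271 to 422. The length used for Tnfrsf18 includes the 414 bases shared with Gm16008, and what they do to its rank was not tested. In Tg muscle the order was Tnfrsf4 with 1242 CPM per kb, Tnfrsf18 with 782, Tnfrsf9 with 509, Tnfrsf1b with 362, Cd27 with 129.5, Traf1 with 106, Tnfrsf25 with 99.3, Fas with 23.2 and Tnfrsf1a with 19.8. Neighbours in that order did not overlap, except Traf1 with Tnfrsf25 and Fas with Tnfrsf1a. In WT spleen Cd27 ranked second, with 346 CPM per kb, between Tnfrsf4 with 387, which it overlapped, and Tnfrsf18 with 296. There Tnfrsf9 had 105 and Tnfrsf1b 112 CPM per kb, and these overlapped.

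**Figure D3:**
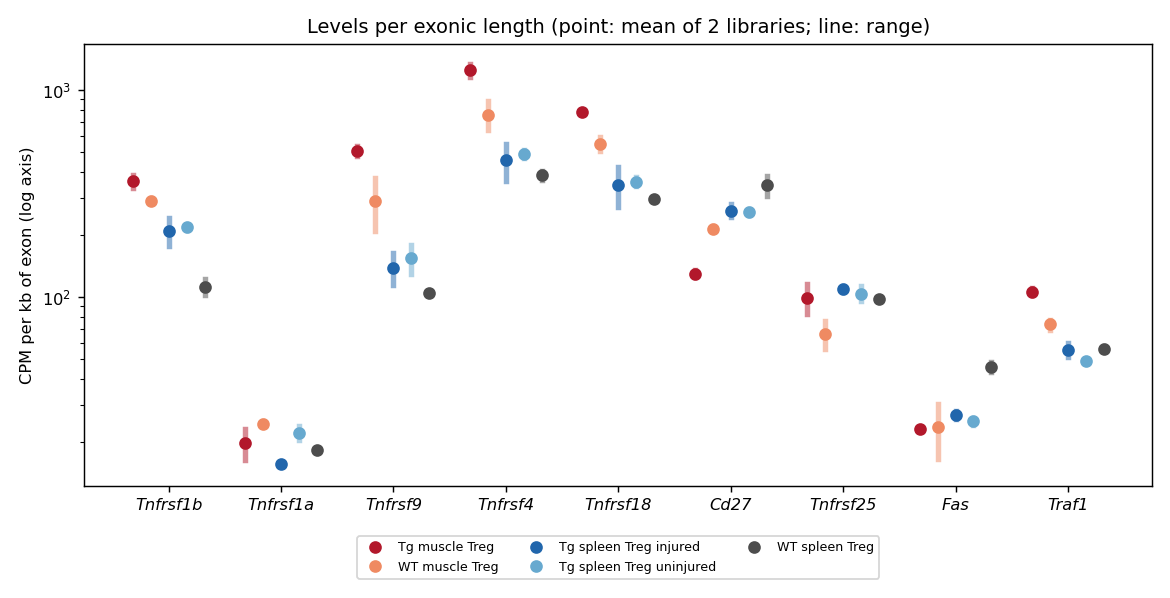
Level per kb of exon (CPM per kb, log axis) of each member in the 5 Treg groups. Points are means of 2 libraries and lines their range. Tnfrsf4 has the highest mean in every group, from 387 CPM per kb in WT spleen to 1242 in Tg muscle. Its range overlaps that of Cd27 in WT spleen and that of Tnfrsf18 in injured Tg spleen.

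The next question was whether Tg and WT Tregs of injured muscle differ. Cd27 alone passed, at 0.608 of the WT level in Tg (log2 -0.72 ± 0.14, adjusted p = 0.0454), and 0.318% of all tested genes were called (0.121% higher and 0.197% lower). The call ended without Tg muscle Treg replicate 1 (-0.78, adjusted p = 0.177), without Tg muscle Treg replicate 2 (-0.67, adjusted p = 0.183) and in a fit of the 2 groups alone (-0.71, adjusted p = 0.257). Of the other members, 6 had positive values that did not pass: Tnfrsf9 at 0.79 (adjusted p = 0.515), Tnfrsf4 at 0.71 (0.261), Tnfrsf25 at 0.58 (0.356), Traf1 at 0.53 (0.149), Tnfrsf18 at 0.52 (0.376) and Tnfrsf1b at 0.32 (0.592). Tnfrsf1a was at -0.29 (95% interval -0.75 to 0.17) and Fas at -0.04 (-0.60 to 0.52). The members' median was 0.52, against -0.01 over all genes, and the libraries of the groups did not overlap for 8 of 9 members, against 36.4% of all genes. Of 6 CD8 T and NK cell markers 2 were tested, with 0 called and 0 positive (median -1). The sum of the 6 was 41.7 to 54.1 CPM in Tg muscle Tregs and 57.5 to 136 in WT muscle Tregs. Whether such cells had a part in the Cd27 difference was not tested. Of 7 muscle fibre markers 3 were tested, and Ttn was higher in Tg (2.28). Among the 3, 2 had positive values (median 0.14). The sum of all 7 was 128 to 162 CPM in Tg muscle Tregs and 35.2 to 44.3 in WT muscle Tregs, with Myh4 at 0 in all 4 libraries. In spleen Tregs that sum was higher in each genotype, at 205 to 257 CPM in injured Tg and 84.6 to 91.5 in WT. Acta1, another of the 7, was at 0 in every library of these spleen groups, so the sum does not stand for all the markers. The part of these markers in the members' values was not tested. Without WT muscle Treg replicate 2, Tnfrsf9 (1.35, adjusted p = 0.0049) and Tnfrsf4 (1.01, adjusted p = 0.0195) also passed, whereas without WT muscle Treg replicate 1 they were at 0.38 (adjusted p = 0.395) and 0.44 (adjusted p = 0.266). Fas was at 0.55 without WT muscle Treg replicate 2 and at -0.45 without replicate 1. Tnfrsf4 also passed without a low-count filter (0.69, adjusted p = 0.00019), and DESeq2 called Tnfrsf4 (0.71, adjusted p = 0.0477) and Traf1 (0.53, adjusted p = 0.0432).

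In the spleen after injury, Tnfrsf1b alone passed between genotypes, 1.85-fold higher in Tg than in WT (log2 0.89 ± 0.16, adjusted p = 0.00878), with 1.3% of all tested genes called (0.887% higher and 0.417% lower). The call ended without injured Tg spleen Treg replicate 1 (0.65, adjusted p = 0.145) and without WT spleen Treg replicate 2 (0.76, adjusted p = 0.131). Fas was at -0.77 (95% interval -1.33 to -0.21, adjusted p = 0.226) and passed in a fit of the 2 groups alone (-0.76, adjusted p = 0.0425). Cd27 was at -0.42 (-0.71 to -0.12, adjusted p = 0.212). The libraries of the groups did not overlap for 6 of 9 members, against 43.1% of all genes. The log2 values of the other 6 members lay between -0.23 for Tnfrsf1a and 0.40 for Tnfrsf9. Of 10 macrophage and monocyte markers tested, 9 had positive values (median 1.56), 8 did not overlap and Itgam was called higher in Tg (2.82). Their sum was 178 to 206 CPM in injured Tg spleen and 98.4 to 118 in WT spleen, with Fcgr1 at 0 in both injured Tg libraries. Of 3 muscle fibre markers tested, Ttn was higher (1.64) and was the 1 with a positive value (median of the 3, -0.86). The sum of all 7 fibre markers was 205 to 257 CPM in injured Tg spleen and 84.6 to 91.5 in WT spleen, with Acta1 at 0 in every library of both groups. Of 14 dissociation genes, 10 had positive values (median 0.18), while Jun was called lower (-2.09). Of 8 Treg genes, 6 had positive values (median 0.1), while Il2ra was called lower (-0.91), at 390 CPM in injured Tg spleen and 729.7 in WT spleen. The part of these lists in the Tnfrsf1b difference was not tested. Uninjured Tg spleen Tregs, at 801 and 854 CPM, had Tnfrsf1b levels within the range of injured Tg spleen Tregs.

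Between injured and uninjured Tg spleen Tregs, edgeR called 0 members and 0% of all tested genes, and 0 genes were called by DESeq2 or by limma-voom. In edgeR 236 genes had an unadjusted p under 0.05. The members' log2 values ran from -0.54 for Tnfrsf1a (95% interval -1.01 to -0.07, unadjusted p = 0.0283) to 0.15 for Traf1 (-0.14 to 0.43). For Tnfrsf1b the value was -0.08 (-0.41 to 0.24) and for Cd27 -0.01 (-0.31 to 0.28). The interval of Tnfrsf9, -0.89 to 0.53, was the widest of the 9. The libraries of the groups did not overlap for Tnfrsf1a and Traf1, against 31.7% of all genes.

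Whether the muscle-to-spleen difference itself differed between genotypes was tested as an interaction. It called 0 members and 0.136% of all tested genes (0.0531% higher and 0.0834% lower). The members with an unadjusted p under 0.05 were Traf1, with a difference of 0.55 ± 0.19 on the log2 scale (unadjusted p = 0.0101, adjusted p = 0.401), and Tnfrsf1b, with -0.57 ± 0.22 (unadjusted p = 0.0198, adjusted p = 0.519). DESeq2 and limma-voom also called 0 members. The other 7 ranged from -0.30 for Cd27 to 0.73 for Fas (-0.06 to 1.52).

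Whole muscle 8 days after injury showed how the same genes stood in the tissue. Tnfrsf1a led the members per kb there, with 11.3 CPM per kb in Tg and 11.9 in WT, whereas it ranked eighth or ninth in each Treg group. Tnfrsf1b had 17.6, 22.3 and 18.9 CPM in Tg and 6.22, 15.9 and 12.8 CPM in WT. These did not overlap, but the log2 value of 0.74 ± 0.30 did not pass (adjusted p = 0.994). All 11 macrophage and monocyte markers had positive values too (median 0.59, 3 not overlapping, 0 called), with sums of 1475 to 1930 CPM in Tg and 553 to 1510 in WT, and their part was not tested. Tnfrsf18 had 1.81, 1.38 and 1.98 CPM in Tg libraries, against 3.47, 4.72 and 3.14 in WT libraries (-1.15 ± 0.56, adjusted p = 0.994). Of the 9 members 7 were tested and 0 called, against 0.0323% of 12377 genes, and 2 of the 7 did not overlap, against 9.63% of all genes. Tnfrsf9 and Tnfrsf4 fell under the count filter. Tnfrsf9 had at most 0.283 CPM in a Tg and 0.147 in a WT library, and Tnfrsf4 at most 1.15 in a Tg and 3.24 in a WT library.

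The wider pathway was read from lists of other TNF receptors, TNF ligands, adaptors and NF-κB target or feedback genes. Their counts stand beside 7.38% of all tested genes called in the Tg tissue comparison and 16.2% in WT. These lists too were chosen with earlier results of these data known, so the shares are no test of them. Among 20 other TNF receptors, 12 were tested. In Tg, 2 were higher in muscle and 1 lower, and in WT 2 were higher and 3 lower. Tnfrsf8, which encodes CD30, had 102 ± 15.8 CPM in Tg muscle against 24.5 ± 4.94 in injured Tg spleen (SD, n = 2 each; log2 2.25 ± 0.33), and 66.98 ± 13.7 against 10.8 ± 6.12 in WT (2.95 ± 0.36). Tnfrsf10b, a TRAIL receptor, was higher by 2.38 in Tg and 2.94 in WT. Tnfrsf26 was lower, at -1.27 in Tg and -1.07 in WT, and Relt was lower in WT, at -1.13. Tnfrsf21 had 0 counts in both WT muscle libraries and 2.95 CPM on average in WT spleen, at least 6.04-fold lower in WT muscle if each muscle library is set to a floor of 3 counts. Tnfrsf13b (TACI) did not pass and was at 0.51 in Tg (adjusted p = 0.0864) and 0.34 in WT (adjusted p = 0.196).

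Of 18 TNF ligands, 10 were tested, with 3 higher and 1 lower in Tg and 3 higher and 3 lower in WT. Tnfsf9, the ligand of CD137, was higher in muscle Tregs by 1.87 ± 0.36 in Tg and 2.00 ± 0.39 in WT, at 36.8 CPM against 11.5 in Tg and 22.2 against 6.01 in WT. Cd40lg was higher by 1.18 in Tg and 1.08 in WT. Tnf was higher by 1.10 in Tg, at 129.8 CPM against 69.2, and at 0.51 in WT (adjusted p = 0.183), and Tnfsf10 (TRAIL) was higher by 0.92 in WT. Tnfsf8, the CD30 ligand, fell by 2.87 in Tg and by 2.99 in WT, opposite to its receptor Tnfrsf8. The lymphotoxin genes Lta (-1.53) and Ltb (-0.68) were lower in WT, with -0.54 (adjusted p = 0.397) and -0.22 (adjusted p = 0.561) in Tg. The ligands of OX40 and CD27, Tnfsf4 and Cd70, had at most 2.01 and 1.35 CPM in any Treg library and 0 in all 6 whole muscle libraries.

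All 25 adaptor and proximal signalling genes were tested. In Tg, 4 were higher (Traf4 1.67, Birc3 1.03, Cflar 0.80, Traf3 0.64) and Traf5 was lower (-0.79). In WT, Tab2 (0.71) and Birc3 (0.61) were higher and 0 lower, so 2 of 25 were called where 16.2% of all tested genes were. Birc3 encodes cIAP2, a ubiquitin ligase of TNF receptor complexes. Ikbkb, a kinase subunit upstream of NF-κB, was at 0.03 in Tg (adjusted p = 0.94) and -0.34 in WT (adjusted p = 0.0998). The list's median was 0.22 in Tg and 0.19 in WT.

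Of 18 NF-κB target and feedback genes, 11 were higher in muscle and 0 lower in Tg, and likewise 11 and 0 in WT. Their median was 1.19 in Tg and 0.78 in WT. Tnfaip3, which encodes the deubiquitinase A20, was higher by 3.46 ± 0.48 in Tg and 3.65 ± 0.49 in WT. Ier3 was higher by 3.01 in Tg and 4.48 in WT, Nfkbiz by 2.83 in Tg and 2.26 in WT, and Nfkbia, the inhibitor IκBα, by 2.23 in Tg and 1.73 in WT. Rel, an NF-κB subunit, was higher by 1.62 ± 0.17 in Tg, with 0.29 ± 0.17 in WT (adjusted p = 0.271), and this difference passed the interaction test (1.33, adjusted p = 0.0434). Between Tg and WT muscle Tregs Rel was the 1 gene of these 4 lists that passed (1.27, adjusted p = 0.00166). Several of these genes also respond to TCR signals and to dissociation.

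**Figure D4:**
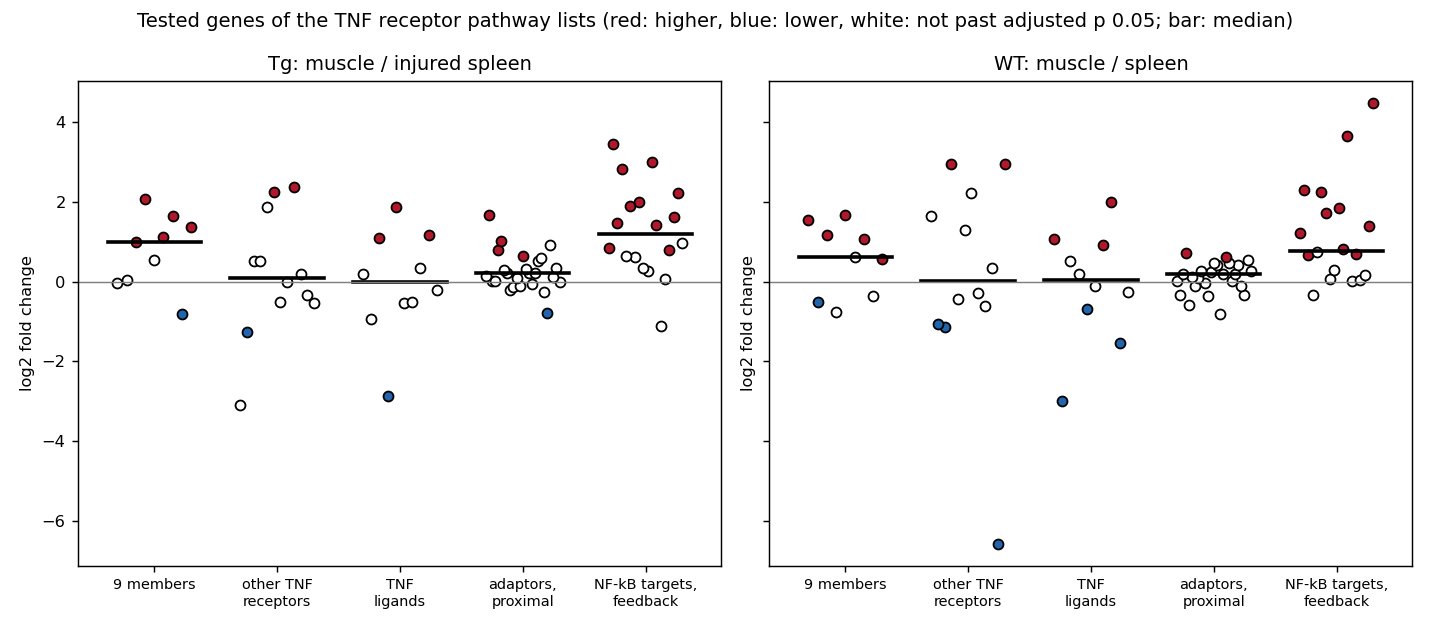
Log2 fold changes, muscle over spleen (y axis), of the 9 members and the tested genes of 4 pathway lists, in Tg (left) and WT (right). Red passed as higher, blue as lower, white did not pass, and bars are medians. The NF-κB target list has 11 red and 0 blue points in each panel, and the lowest point on the right is Tnfrsf21, whose fitted value rests on 0 counts in WT muscle.

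Genes of like profile were ranked for each member among 7424 expressed genes by root mean square distance of centred log2 profiles over the 10 Treg libraries. Closest to Tnfrsf1b were Rilpl2 (0.11), Mif4gd (0.15) and Il10ra (0.16), the last encoding the IL-10 receptor ligand-binding chain. Near Tnfrsf9 were Map2k3 (0.28) and Ehd1 (0.30). Tnfrsf4 had Bcl2a1b (0.18), Gdpd5 (0.18) and Cish (0.20) as its nearest, and Tnfrsf18 had Mapkapk3 (0.14), Cish (0.14) and Gdpd5 (0.17), so Cish and Gdpd5 appeared for both neighbours. Traf1 lay nearest to Stat3 (0.14), Slamf1 (0.14) and Birc3 (0.15). Cd27 lay nearest to H2-DMa (0.10), Ndufab1 (0.11) and Hsd17b4 (0.12), and Fas to Ikzf4 (0.17), Mier2 (0.18) and Rgs10 (0.20). Tnfrsf1a (Ndst1, Ahsa1 and Fcho1) and Tnfrsf25 (Snx11, Micu3 and Thap7) had nearest genes at 0.14 to 0.15, close to many genes since their profiles were flat, with a median distance to all candidates of 0.40 and 0.39 against 0.96 for Tnfrsf9.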

How the data were processed

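The deposited table holds raw counts per gene symbol for 16 libraries. Reads were 2 x 25 bases, and STAR 2.5.4, featureCounts and the build mm10 are named in the submitters' processing notes. Whether multi-mapping reads were counted is not given in the sources used here. CPM was computed from these deposited counts as count over library total, and exon lengths came from GENCODE vM21. The members and lists were chosen with earlier results of these data known. The 10 Treg libraries were fitted together (13188 genes after filterByExpr) and the 6 whole muscle libraries apart (12377 genes), with edgeR 4.0.16 in R 4.3.3: TMM factors, robust glmQLFit, glmQLFTest and Benjamini-Hochberg adjustment over all genes at 0.05. Log2 fold changes come from that fit, with SE and 95% intervals. The code was tested on simulated counts. DESeq2 1.42.0, limma-voom (limma 3.58.1), other scalings and filters, a fit of the compared groups alone, a replicate block and leaving out each library were alternatives. Named genes of each list were up to 4 called with the largest change and up to 2 abundant uncalled genes, and of like profile the 3 nearest, some of which are not reported here. Intervals cover the spread between libraries. Sources disagree on how many cells were sorted, so no cell number is used.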

Additional observations from a re-analysis of the deposited data

How the results depend on the processing

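Of 771 values of members under alternatives, 714 kept their sign and side of the threshold, 14 lost and 12 gained a call, and 31 changed sign with no call before or after. No called value changed sign. Most of the 771 were values not called in the main fit, which could not lose a call. The calls lost under at least 1 alternative were Cd27, Tnfrsf9 and Traf1 in WT tissue and Tnfrsf9 in Tg tissue. Cd27 between Tg and WT muscle and Tnfrsf1b between injured Tg and WT spleen were lost as well. In the tissue comparisons the count of members called (6 each) ranged over 4 to 6 in WT and 5 to 6 in Tg with 1 library left out, and over 0 to 3 (main 1) between Tg and WT muscle and 0 to 1 (main 1) between injured Tg and WT spleen. Between Tg and WT muscle it was 2 without a filter, 3 with DESeq2 and 0 with only the groups compared, and in spleen 2 with only the groups compared. Over all genes, only the groups compared gave 1046 calls in the WT tissue comparison (main 2143), 10 between Tg and WT muscle (main 42), 338 in spleen (main 172) and 4 in the interaction (main 18). No filter gave 195, 372 and 140 in the last 3 of these, 5 between injured and uninjured spleen (main 0) and 11 in whole muscle (main 4), and DESeq2 gave 103, 304 and 62 in those 3. With 1 library left out, calls over all genes ranged from 887 to 2768 in the WT tissue comparison, 452 to 640 in Tg tissue (main 973), 25 to 361 between Tg and WT muscle, 57 to 160 in spleen and 3 to 241 in the interaction. The cause was not tested. Same-numbered libraries did not deviate together (correlations of -0.04 to 0.11), and a replicate block gave 2 calls in whole muscle and moved no other count by over 1.5 times. Members had 96 to 10962 counts in a Treg library. SEs in the comparisons of 2 Treg groups ran from 0.13 for Traf1 to 0.32 for Tnfrsf9.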
